A study of Mus musculus with 36 samples.

Results

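The genes described here are 9 members of the coagulation and plasminogen systems, taken by name from the first column of the deposited expression table: F3, F7, F10, Plau, Plaur, Serpinb2, Thbs1, Procr and Tfpi. All 9 had a row among the 16416 genes used, and all 9 passed the filter on low values that left 11656 genes for testing. The samples were 36 RNA-seq libraries of mouse bone marrow-derived macrophages (BMDMs), macrophages grown from marrow for 7 days in RPMI with 10% fetal calf serum and 10% supernatant of L929 cells, a source of macrophage growth factor. The cells were wild type (WT) or carried the D310N substitution in Tnip2, the gene for ABIN-2, a ubiquitin-binding adaptor of inflammatory signalling. Each genotype was sampled unstimulated (0 min) and after 30, 60, 120, 240 and 360 min of 100 ng/ml LPS, the bacterial lipopolysaccharide sensed by Toll-like receptor 4, with 3 libraries per group. WT and D310N macrophages were grown and stimulated in the same way, and every LPS comparison within a genotype uses the same 3 unstimulated libraries. Strain, age, sex and number of mice are not given in the sources used here. No label says that the 3 libraries of a group came from separate animals, so the p-values measure the spread between these libraries, which may be technical.

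Coagulation starts when tissue factor (F3) on a cell surface binds factor VII (F7), and this complex activates factor X (F10), which then makes thrombin. The extrinsic pathway inhibitor Tfpi blocks the tissue factor complex, and the endothelial protein C receptor Procr presents protein C for activation as an anticoagulant. Fibrin is dissolved by plasmin, which the urokinase-type activator Plau releases from plasminogen at the cell surface, held there by its receptor Plaur, while Serpinb2 (plasminogen activator inhibitor 2) inhibits urokinase. Thrombospondin 1 (Thbs1) is a secreted matrix glycoprotein that binds platelets, integrins and proteases. Monocytes and macrophages are known to make tissue factor when they meet LPS, and to carry urokinase on its receptor when they migrate through tissue.

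All values are log2 of the authors' normalised expression, without correction for gene length, so levels are compared within a gene and not between genes. A difference of 1 on this scale is a doubling. A gene is called higher or lower where limma's moderated test, fitted to all 36 libraries and 11656 genes, gave a Benjamini-Hochberg adjusted p under 0.05, and errors given with ± are standard errors of the fit. Read totals are not in a table of this kind, so the depth behind each value is unknown. Library medians lay between 6.83 and 7.2. In bulk RNA, fewer cells of a type and less RNA per cell cannot be told apart.

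The library labelled WT at 360 min, replicate 1, stood apart. Over all tested genes it correlated with the WT libraries of 240 min at a mean Pearson r of 0.997, against 0.990 with the other 2 WT libraries of 360 min. It had the lowest library weight in limma, 0.0747, with the next lowest at 0.385, and is called WT 360-1 below. For F3 it read 7.24 where replicates 2 and 3 averaged 5.99 and the WT mean at 240 min was 6.97, and for Thbs1 it read 8.62 where the other 2 averaged 9.73 and the 240 min mean was 8.71. Calls that change when it is left out are given with and without it beside each gene; since all groups share 1 estimate of the spread, these include calls at other times.

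The genotype differences called on average were all higher in D310N. Averaged over the 6 times, 7 of 9 were higher in D310N and none was called lower, with 48.1% of all tested genes called in either direction and 22.7% called higher. The median difference of the 9 was 0.28, against -0.0014 over all tested genes. The members were chosen with earlier results of these data known, and F7 and F10 are neighbours on the chromosome. These shares are therefore given as a description. At single times, 4 of 9 were called higher at 0 min (background called in either direction 10.7%, higher 3.64%), 5 at 30 min (12.2%, higher 4.43%), 4 at 60 min (12.9%, higher 4.89%), 6 at 120 min (17.7%, higher 7.94%), 3 at 240 min (17%, higher 6.98%) and 5 at 360 min (16.3%, higher 6.8%). The ones called on average were F7, F10, Plau, Procr, F3, Thbs1 and Plaur, and Serpinb2 and Tfpi were not. None of the 9 was called lower in D310N at any time under the fit to all libraries. With WT 360-1 left out, 6 were called at 240 min: the same 3 with F3 and Plau, also higher, and Serpinb2, which was lower. The 360 min count was 0 when only the 2 groups compared were fitted, and the 0 min count was 2 without D310N replicate 1 of that time. The background shares above belong to the fit to all libraries. Those under these other fits are not given here.

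**Figure D1:**
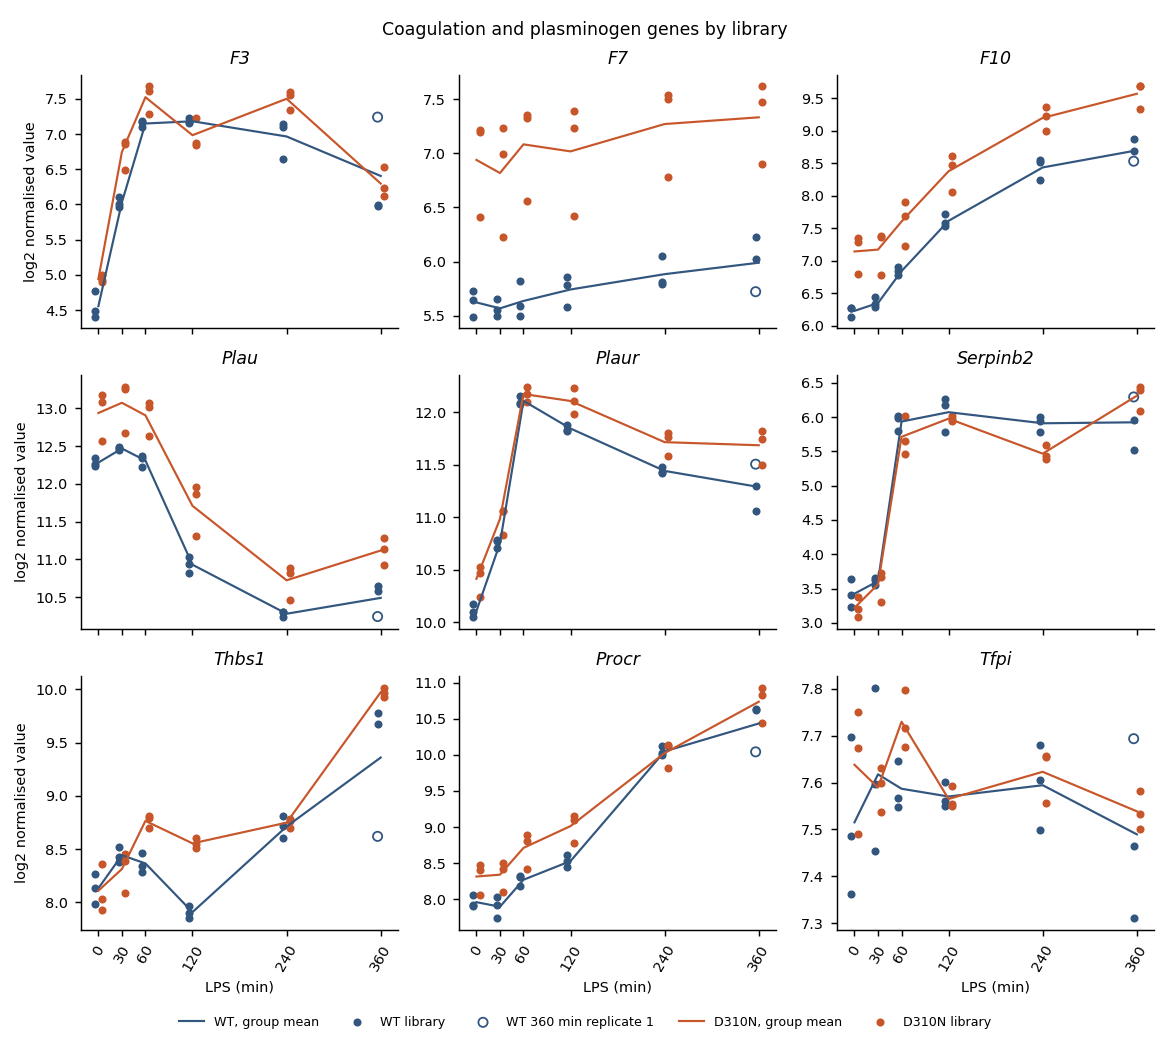
Log2 normalised expression (y axis) of the 9 genes against minutes of LPS (x axis) in WT (blue) and D310N (orange) macrophages, with each of the 3 libraries per group as a point and lines through the group means. F7 and F10 of every D310N library lie above those of every WT library of the same time, Plau falls after 60 min in both genotypes, and the open circle marks WT at 360 min, replicate 1.

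LPS changed most of the 9 genes in both genotypes. In WT, 2 of 9 were called at 30 min (background 6.09%), 4 at 60 min (37.2%), 6 at 120 min (66.6%), 7 at 240 min (80%) and 7 at 360 min (80.4%). In D310N the counts were 2 (6.64%), 6 (38.5%), 7 (64%), 7 (79.1%) and 7 (80%). From 120 min on, Plau was the gene called lower in either genotype and every other call was higher. The shares from 120 min on were near those of all tested genes, so what sets the members apart is described gene by gene.

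The 2 genotypes were also compared in their LPS response itself, as the change from 0 min in D310N minus that in WT. None of the 9 differed at any of the 5 times or in the joint test over the times by limma, where the share of all genes called was 0% at 30 min, 0.0686% at 60 min, 0.935% at 120 min, 1.95% at 240 min, 2.01% at 360 min and 4.84% in the joint test. At an unadjusted p under 0.05 the members that passed were F3 at 120 min, Serpinb2 at 360 min, Thbs1 at 120 and 360 min, and F3, Serpinb2 and Thbs1 in the joint test. No member passed at 30, 60 or 240 min. The shares above are for adjusted p. The share of all genes at this unadjusted threshold is not given here, so these passes have no background to be read against. Other fits called the response of Thbs1 at 120 or 360 min, Procr at 240 min or Serpinb2 at 360 min. With WT 360-1 left out, the joint test called 3 of 9, which were Thbs1 (adjusted p = 0.000209), F3 (0.014) and Serpinb2 (0.0297). The share of all genes called in that refit is not given here, and the 4.84% belongs to the fit to all libraries.

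F3, which encodes tissue factor, the trigger of the cascade, was among the 2 members already called at 30 min. The WT libraries read 4.48, 4.41 and 4.77 before LPS, 6.11, 6.01 and 5.97 after 30 min, and 7.18, 7.17 and 7.10 after 60 min. Every stimulated WT library was above every unstimulated one, and the gain over 0 min was 1.48 ± 0.20 at 30 min, 2.60 ± 0.20 at 60 min (6.04-fold) and 2.41 ± 0.20 at 240 min. In D310N the gain was 1.80 ± 0.20 at 30 min, 2.58 ± 0.20 at 60 min, 2.04 ± 0.20 at 120 min and 2.56 ± 0.20 at 240 min. At 360 min the D310N libraries read 6.54, 6.12 and 6.23, below all D310N libraries of 60, 120 and 240 min, and the WT libraries read 7.24, 5.98 and 6.0. The WT gain at 360 min was 1.85 ± 0.20 with all 3 libraries and 1.43 without replicate 1, close to the D310N gain of 1.36 ± 0.20.

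The genotype difference of F3 was called at 30 min, when the D310N libraries read 6.88, 6.49 and 6.86, all above the WT libraries (0.71 ± 0.20, adjusted p = 0.0154). At 0, 60 and 240 min the libraries also did not overlap and D310N was higher, by 0.39, 0.37 and 0.54 (each ± 0.20), without passing the adjusted threshold (adjusted p = 0.26, 0.251 and 0.0628). With WT 360-1 left out, all 3 passed at the same differences (adjusted p = 0.0403, 0.0427 and 0.00279). At 120 min the difference was -0.20 ± 0.20 (adjusted p = 0.555). At 360 min it was -0.11 ± 0.20 (adjusted p = 0.767) and turned to 0.31 (adjusted p = 0.141) without that library. The average over the 6 times was 0.28 ± 0.08 (adjusted p = 0.00478), and 0.35 without that library. The call at 30 min was lost when WT replicate 3 or D310N replicate 1 or 3 of that time was left out (adjusted p between 0.0553 and 0.085), with the difference still between 0.64 and 0.68.

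The stretch just upstream of F3 is shown because F3 was among the earliest of the 9 to rise, to be set beside those of Plaur and Serpinb2, which also rose by 60 min, and of F10 and F7, which showed no early rise of that size. RefSeq windows of the build GRCm38.p6 were matched for 7 of the 9 genes, and the 250 bases before the start are printed 5′ to 3′ in lower case. Capitals mark exact matches, on either strand, to 4 motifs. The letters searched for AP-1 were TGANTCA. For NF-kB they were GGNNTTTCC, a form chosen after the F3 window had been seen. Its match in F3 was therefore fixed in advance, and other forms of NF-kB site were not searched. Sites of Sp1 were searched as GGGCGG, and TATA boxes as the letters TATAAA. Of 32851 such windows of all genes, 6.75% hold the AP-1 letters, 4.93% the NF-kB letters, 32.7% the Sp1 letters and 12.4% the TATA letters. A match is a description of letters and shows no binding.
F3 (chr3:121723287-121723536, plus strand): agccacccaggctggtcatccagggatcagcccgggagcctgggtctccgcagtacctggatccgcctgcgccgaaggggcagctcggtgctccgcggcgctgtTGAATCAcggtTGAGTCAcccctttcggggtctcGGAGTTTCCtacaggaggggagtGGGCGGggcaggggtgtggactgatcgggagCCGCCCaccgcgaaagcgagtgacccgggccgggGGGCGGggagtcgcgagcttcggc
Plaur (chr7:24462233-24462482, plus strand): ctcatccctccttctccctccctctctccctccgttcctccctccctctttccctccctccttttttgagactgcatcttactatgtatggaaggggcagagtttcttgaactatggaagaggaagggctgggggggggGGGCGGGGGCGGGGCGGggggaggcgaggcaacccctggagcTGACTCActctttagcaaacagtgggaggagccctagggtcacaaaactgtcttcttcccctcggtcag
Serpinb2 (chr1:107511173-107511422, plus strand): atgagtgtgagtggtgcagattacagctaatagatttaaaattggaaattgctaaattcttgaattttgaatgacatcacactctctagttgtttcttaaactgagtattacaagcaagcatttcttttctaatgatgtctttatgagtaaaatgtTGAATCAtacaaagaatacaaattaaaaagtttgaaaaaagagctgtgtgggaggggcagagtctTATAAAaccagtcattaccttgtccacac
F10 (chr8:13037058-13037307, plus strand): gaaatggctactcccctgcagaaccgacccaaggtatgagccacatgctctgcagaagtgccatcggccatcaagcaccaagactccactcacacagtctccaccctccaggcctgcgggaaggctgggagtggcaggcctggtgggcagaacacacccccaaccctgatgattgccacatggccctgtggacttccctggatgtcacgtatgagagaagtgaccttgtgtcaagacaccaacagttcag
F7 (chr8:13025784-13026033, plus strand): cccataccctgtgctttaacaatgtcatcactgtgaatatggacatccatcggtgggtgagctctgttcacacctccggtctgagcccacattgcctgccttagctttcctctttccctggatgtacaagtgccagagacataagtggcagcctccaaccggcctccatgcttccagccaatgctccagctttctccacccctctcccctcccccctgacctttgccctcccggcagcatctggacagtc
The F3 window holds 2 AP-1 matches, TGAATCA at 146 to 140 and TGAGTCA at 135 to 129 bases before the start, then the NF-kB letters GGAGTTTCC at 112 to 104, and 3 Sp1 matches. The Plaur window holds TGACTCA at 69 to 63 and 3 Sp1 matches, of which the pair at 105 to 100 and 100 to 95 share a base. The Serpinb2 window holds TGAATCA at 94 to 88 and TATAAA at 29 to 24. A further AP-1 match, TGACTCA at 154 to 148, lies in the window of Procr, which rose late. Tfpi, flat under LPS in the fit to all libraries, has 2 windows. Both hold Sp1 letters, and 1 of them also holds the TATA letters. A second, overlapping window of Serpinb2 holds TGAATCA at 181 to 175 and TATAAA at 116 to 111. The windows of Procr and Tfpi and this second one are not printed. The windows of F10 and F7 hold none of the 4 motifs, which says only that these letters are not in these 250 bases.

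F7, factor VII, the soluble partner of tissue factor, had the largest genotype difference of the 9 genes. At 0 min the WT libraries read 5.49, 5.73 and 5.65 and the D310N libraries 7.19, 6.41 and 7.21. At 120 min WT read 5.86, 5.79 and 5.58 and D310N 7.39, 6.42 and 7.24. At 360 min WT read 5.72, 6.23 and 6.02 and D310N 7.48, 6.90 and 7.62. At each of the 6 times every D310N library was above every WT library. The difference lay between 1.25 at 30 min and 1.44 at 60 min (each ± 0.26, adjusted p from 0.000164 to 0.000876), and averaged 1.33 ± 0.10, or 2.52-fold (adjusted p = 6.68e-12). The LPS changes in F7 did not pass the test under the fit to all libraries: 0.26 ± 0.26 at 240 min and 0.37 ± 0.26 at 360 min in WT, and 0.33 ± 0.26 and 0.39 ± 0.26 in D310N (adjusted p between 0.158 and 0.351). After quantile normalisation they passed, at 0.63 and 0.74 in WT and 0.57 and 0.65 in D310N (adjusted p between 0.0109 and 0.0475). They also passed without the 6 D310N libraries numbered 2 (adjusted p between 0.00503 and 0.0461). With replicate numbers fitted as a block they passed as well (adjusted p between 0.00128 and 0.0247).

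F10, factor X, which the tissue factor complex cuts into the enzyme that activates prothrombin, combined a rise with LPS and a genotype difference. WT libraries read 6.14, 6.27 and 6.28 before LPS, 7.54, 7.58 and 7.73 after 120 min, and 8.53, 8.88 and 8.69 after 360 min. D310N libraries read 7.35, 6.80 and 7.28 before LPS, 8.61, 8.06 and 8.47 after 120 min, and 9.69, 9.33 and 9.69 after 360 min. The unstimulated D310N libraries were all above the WT libraries of 30 min (6.28 to 6.44), and at every time the D310N libraries were all above the WT ones.

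In WT, F10 was not called at 30 min (0.12 ± 0.16) and rose by 0.61 ± 0.16 at 60 min, 1.39 ± 0.16 at 120 min, 2.21 ± 0.16 at 240 min and 2.47 ± 0.16 at 360 min, the last a 5.54-fold gain. In D310N the gain was 0.46 ± 0.16, 1.24 ± 0.16, 2.06 ± 0.16 and 2.43 ± 0.16 at the same times. The 60 min call in D310N was lost when D310N replicate 2 of 0 min, or replicate 1 or 3 of 60 min, was left out (adjusted p between 0.0827 and 0.206). The genotype difference was 0.91 ± 0.16 at 0 min and between 0.76 and 0.87 afterwards, called at each of the 6 times, and averaged 0.82 ± 0.07, or 1.76-fold (adjusted p = 1.54e-11). The LPS response of F10 in D310N minus that in WT was between -0.15 and -0.04 (each ± 0.23), with no call.

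**Figure D2:**
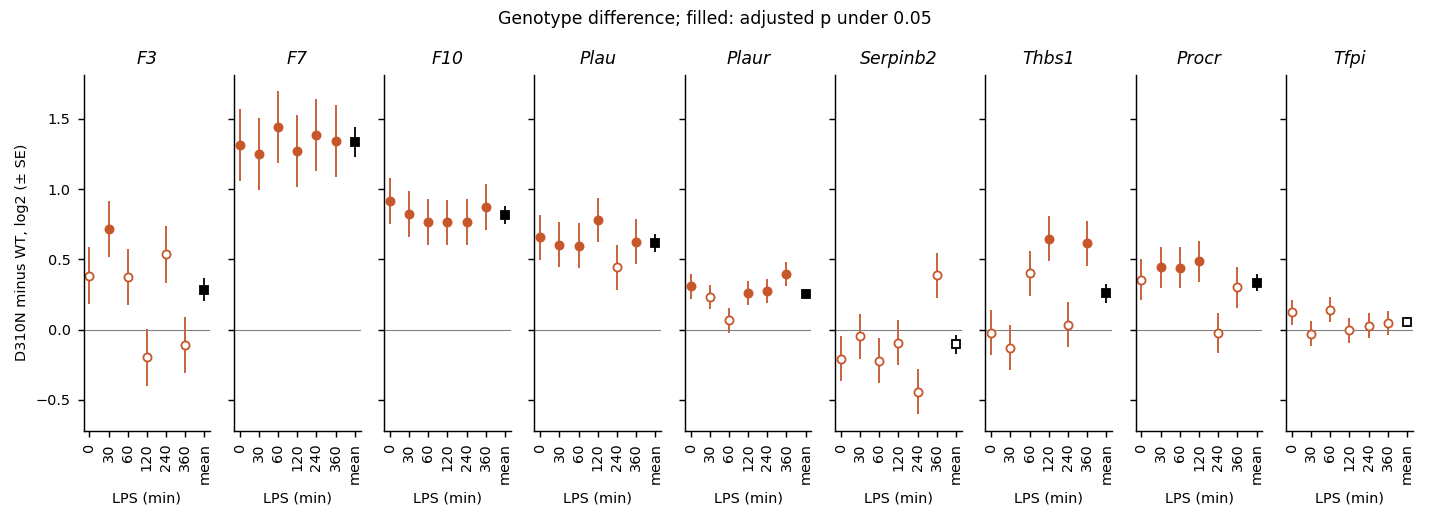
D310N minus WT in log2 expression (y axis, ± SE) for each of the 9 genes at 6 times of LPS (circles) and averaged over them (squares), with filled symbols at an adjusted p under 0.05. F7 and F10 are filled at all 6 times, Plau at 5 of them, and Tfpi at none.

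Tfpi, the inhibitor of the tissue factor complex, was the flat member under the fit to all libraries. WT libraries read 7.36, 7.70 and 7.49 at 0 min and 7.69, 7.31 and 7.46 at 360 min, and D310N libraries 7.67, 7.49 and 7.75 at 0 min and 7.53, 7.50 and 7.58 at 360 min. These ranges overlap. No change with LPS passed the test in either genotype under that fit, with differences between -0.10 and 0.10 (each ± 0.09). After quantile normalisation the WT changes at 120, 240 and 360 min passed, at 0.21, 0.30 and 0.22 (adjusted p = 0.0425, 0.00406 and 0.029). With library weights the D310N change at 360 min passed, at -0.15 (adjusted p = 0.038). The genotype difference averaged 0.05 ± 0.04 (adjusted p = 0.237). Library weights called it on average, at 0.08 (adjusted p = 0.0353), and at 0 min, at 0.18 (adjusted p = 0.0308).

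Procr, the protein C receptor, rose late. WT libraries read 7.92, 7.90 and 8.05 before LPS, 8.44, 8.53 and 8.61 after 120 min, 10.03, 10.00 and 10.12 after 240 min, and 10.04, 10.63 and 10.64 after 360 min. The WT gain at 60 min was 0.31 ± 0.14 (adjusted p = 0.094), and it passed without WT 360-1 (adjusted p = 0.0444). It was called from 120 min, at 0.57 ± 0.14, 2.09 ± 0.14 and 2.48 ± 0.14, and the last was 2.68 without WT replicate 1 of 360 min. In D310N it was called from 60 min, at 0.40 ± 0.14, 0.70 ± 0.14, 1.71 ± 0.14 and 2.43 ± 0.14, and the 60 min call was lost when D310N replicate 2 of 0 min or replicate 1 or 3 of 60 min was left out (adjusted p between 0.11 and 0.193). The 60 min responses of WT and D310N did not differ by test (0.09 ± 0.20).

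Procr was higher in D310N on average, by 0.33 ± 0.06 (adjusted p = 2.41e-05). At 0 min it was 0.36 ± 0.14 (adjusted p = 0.122, and 0.0499 without WT 360-1). At 30, 60 and 120 min the difference was called, at 0.44, 0.44 and 0.49 (each ± 0.14, adjusted p = 0.0401, 0.0399 and 0.0182). Leaving out WT replicate 1 or D310N replicate 1 or 3 of the same time ended the call at each of these 3 times. WT replicate 2 did so at 30 and 60 min, and WT replicate 3 at 60 min. At 240 min the groups overlapped, with WT at 10.03, 10.00 and 10.12 and D310N at 10.12, 9.82 and 10.13, and the difference was -0.02 ± 0.14 (adjusted p = 0.935). Setting the response at 240 min in D310N against that in WT gave -0.38 ± 0.20 (adjusted p = 0.406).

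Plau, the urokinase-type plasminogen activator, was the 1 member of the 9 called lower with LPS under the fit to all libraries. WT libraries read 12.26, 12.34 and 12.24 before LPS, 12.22, 12.35 and 12.37 after 60 min, 10.81, 10.94 and 11.04 after 120 min, and 10.23, 10.31 and 10.30 after 240 min. D310N libraries read 13.17, 12.56 and 13.08 before LPS, 13.08, 12.63 and 13.02 after 60 min, 11.96, 11.31 and 11.86 after 120 min, and 10.82, 10.46 and 10.88 after 240 min. Up to 60 min no change was called in either genotype, and by 120 min every library was below all earlier ones of its genotype. The change from 0 min was -1.35 ± 0.16, -2.00 ± 0.16 and -1.79 ± 0.16 at 120, 240 and 360 min in WT, and -1.23 ± 0.16, -2.22 ± 0.16 and -1.82 ± 0.16 in D310N. In WT at 240 min this left 0.25 of the unstimulated level. Under other processing and fits that change was still called, between -2.55 and -1.97.

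At every time all 3 D310N libraries were above all 3 WT libraries for Plau. The difference was called at 0, 30, 60, 120 and 360 min, at 0.66, 0.61, 0.60, 0.78 and 0.63 (each ± 0.16), and missed the threshold at 240 min with 0.44 ± 0.16 (adjusted p = 0.0524). With WT 360-1 left out, the 240 min difference passed (adjusted p = 0.0312). Leaving out D310N replicate 1 ended the call at 0, 30 and 60 min (adjusted p = 0.0638, 0.0854 and 0.0707), D310N replicate 3 at 30 and 60 min (0.0751 and 0.054) and WT replicate 1 at 60 min (0.0521). On average Plau was higher by 0.62 ± 0.06, or 1.54-fold (adjusted p = 2.8e-09).

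Plaur, the urokinase receptor, moved the other way from Plau under LPS. WT libraries read 10.10, 10.05 and 10.18 before LPS, 10.70, 10.77 and 10.78 after 30 min, 12.15, 12.09 and 12.08 after 60 min, and 11.43, 11.42 and 11.47 after 240 min. The gain over 0 min in WT was 0.64 ± 0.09, 2.00 ± 0.09, 1.74 ± 0.09, 1.33 ± 0.09 and 1.18 ± 0.09 at 30, 60, 120, 240 and 360 min. Under other processing and fits it was still called, between 0.88 and 1.37 at 240 min and between 0.74 and 1.29 at 360 min. The 60 min gain was 4.0-fold, and in D310N it was 1.76 ± 0.09 on the log2 scale. At 60 min, where both genotypes were highest, they overlapped, with D310N at 12.24, 12.10 and 12.18 and a difference of 0.07 ± 0.09 (adjusted p = 0.72).

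Away from 60 min the Plaur difference was small and in 1 direction. D310N libraries read 10.53, 10.24 and 10.47 at 0 min and 11.80, 11.58 and 11.76 at 240 min, above all WT libraries of these times. The difference was called at 0, 120, 240 and 360 min, at 0.31, 0.26, 0.27 and 0.40 (each ± 0.09, adjusted p = 0.018, 0.0338, 0.0276 and 0.00198). At 30 min it was 0.23 ± 0.09 (adjusted p = 0.08, and 0.0324 without WT 360-1). Leaving out 1 library of the time ended the call in 4 of 6 cases at 0 min, 5 of 6 at 120 min and 4 of 6 at 240 min. Without WT replicate 1 the 360 min value was 0.51. The average was 0.26 ± 0.04, or 1.19-fold (adjusted p = 4.8e-07).

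Serpinb2, the inhibitor of urokinase, was near the filter before LPS, with WT libraries at 3.23, 3.4 and 3.64 and D310N libraries at 3.37, 3.08 and 3.21, so that its fold changes may be understated. It was not called at 30 min in either genotype. At 60 min WT read 5.99, 6.01 and 5.80, all above 0 min, a gain of 2.51 ± 0.16 (5.70-fold) that was 2.65, 2.48 and 2.5 (each ± 0.16) at 120, 240 and 360 min. In D310N the gain was 2.49, 2.76, 2.25 and 3.09 (each ± 0.16) at 60, 120, 240 and 360 min.

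The genotype differences of Serpinb2 at the last 2 times had opposite signs and did not pass the threshold. At 240 min WT read 5.78, 5.95 and 6.01 and D310N 5.39, 5.43 and 5.59, without overlap, a difference of -0.44 ± 0.16 (adjusted p = 0.0542). At 360 min D310N read 6.44, 6.09 and 6.40 and WT 6.29, 5.52 and 5.96, a difference of 0.39 ± 0.16 (adjusted p = 0.0962). Without WT replicate 1 of 360 min, both passed, at -0.44 (adjusted p = 0.0256) and 0.57 (adjusted p = 0.0139), and the response at 360 min was larger in D310N by 0.78 (adjusted p = 0.0339) against 0.59 ± 0.23 (adjusted p = 0.2) with it. The average over the times was -0.10 ± 0.07 (adjusted p = 0.194).

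Thbs1, thrombospondin 1, differed between the genotypes at some times and not at others. At 0 min the groups overlapped, with WT at 8.14, 8.27 and 7.99 and D310N at 8.03, 8.36 and 7.93. At 120 min WT read 7.90, 7.97 and 7.85, below all WT libraries of 0 min, and D310N read 8.51, 8.60 and 8.55, above all D310N libraries of 0 min. At 240 min they overlapped again, at 8.81, 8.61 and 8.72 against 8.78, 8.70 and 8.76. The WT change at 120 min was -0.22 ± 0.16 (adjusted p = 0.221), and it passed without WT 360-1 (adjusted p = 0.0214) and when only the 2 groups compared were fitted (0.0174). The WT libraries of 30 and 60 min lay above all of 0 min, by 0.31 and 0.23 (each ± 0.16, adjusted p = 0.333 and 0.281, and 0.017 and 0.028 without WT 360-1). That of D310N at 120 min was 0.45 ± 0.16 (adjusted p = 0.0162). The D310N call at 120 min was lost without D310N replicate 1 (adjusted p = 0.0534) or 3 (0.0864) of 0 min.

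The genotype difference of Thbs1 was called at 120 min (0.65 ± 0.16, adjusted p = 0.00443) and at 360 min (0.61 ± 0.16, adjusted p = 0.00848). The 360 min value rests on the WT library that stood apart: the WT libraries read 8.62, 9.68 and 9.78 and the D310N libraries 10.02, 9.93 and 9.97, and without WT replicate 1 the difference was 0.24 (adjusted p = 0.0768). At 120 min, where that library enters only the shared spread, the difference stayed at 0.65 with an adjusted p of 1.07e-06 without it, and the 60 min difference of 0.40 ± 0.16 went from an adjusted p of 0.104 to 0.000978. The direct test of the response at 120 min gave 0.67 ± 0.23 (adjusted p = 0.232), and 0.67 with an adjusted p of 0.0012 when that library was left out of the spread estimate. The joint test over the times gave an adjusted p of 0.0655 with all libraries. At 360 min the gain over 0 min was 1.23 ± 0.16 in WT, 1.60 without replicate 1, and 1.87 ± 0.16 in D310N. The response at 360 min, D310N minus WT, was 0.64 ± 0.23 (adjusted p = 0.164), 0.27 without WT replicate 1 (0.274), and passed without WT replicate 2 (0.0392) or 3 (0.0258), which leaves that library more weight. The average difference was 0.26 ± 0.07 (adjusted p = 0.00165), and 0.20 without that library.

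The D310N libraries were not alike among themselves. The number in the labels runs from 1 to 3 at each time, and for F7, F10, Plau and Plaur the library numbered 2 was the D310N library nearest to the WT mean at all 6 times. The F7 difference from the WT mean, averaged over the times, was 1.62 for number 1, 0.81 for number 2 and 1.57 for number 3. For F10 it was 1.00, 0.50 and 0.95, for Plau 0.78, 0.30 and 0.77, and for Procr 0.46, 0.08 and 0.45. Thbs1 did not share this order, at 0.27, 0.32 and 0.18. Over all tested genes, number 2 was nearest to WT at all 6 times for 471 genes (4.04%), number 1 for 21 and number 3 for 20. Deviations from the group means were also correlated between libraries of different times. In D310N the mean r was 0.21, 0.28 and 0.07 within numbers 1, 2 and 3, against -0.09 between different numbers. In WT it was -0.02, 0.02 and 0.02, against -0.004. The labels do not say whether libraries of 1 number share a source, in which case the 6 times would not be independent.

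**Figure D3:**
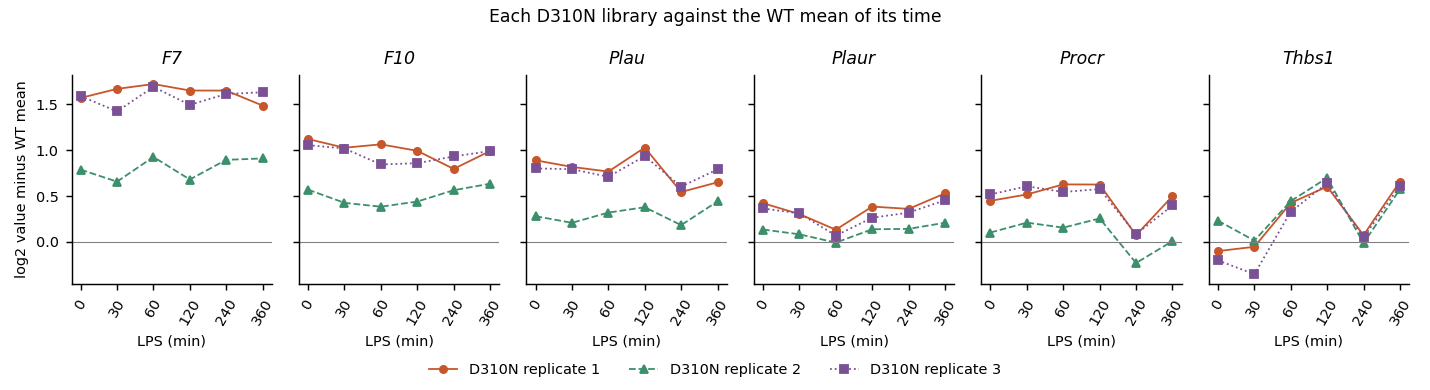
Log2 value of each D310N library minus the WT mean of the same time (y axis) against minutes of LPS (x axis, evenly spaced) for 6 genes, with 1 line per replicate number. Replicate 2 runs below replicates 1 and 3 for F7, F10 and Plau at all 6 times and not for Thbs1.

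The average differences were therefore also fitted with 1 mean per genotype and number, 3 values against 3, an alternative chosen after these values were seen. All 7 calls held in limma: F7 with an adjusted p of 0.000663, F10 with 0.000794, Plau with 0.00296, Plaur with 0.00673, Thbs1 with 0.00718, F3 with 0.0207 and Procr with 0.027. Leaving out the 6 D310N libraries numbered 2 gave larger average differences for F7 (1.60), F10 (0.97), Plau (0.78) and Procr (0.46), and the same 7 genes were called.

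The other genes of the 2 systems came from 5 lists of 55 genes, of which 42 had a row and 26 passed the filter. On average over the times 8 of the 26 were higher in D310N and 8 were lower, so 16 were called where 48.1% of all tested genes were, and in WT at 240 min of LPS 12 rose and 7 fell, against 80% of all tested genes called. In the coagulation cascade and its receptors, 2 of 6 tested genes were higher in D310N and 2 lower, and 3 rose and 2 fell with LPS at 240 min in WT. The thrombin receptor F2r (PAR1) rose by 2.88 ± 0.18, F9 (factor IX) by 0.90 ± 0.11 and F8 (factor VIII) by 0.69 ± 0.20, while Vwf, the carrier of factor VIII, changed by -0.88 ± 0.14. Before LPS, F2r read 2.30 to 2.58 in WT and 2.10 to 2.73 in D310N, below the level of the filter. F8 was also low, with a median of 2.98 over all libraries. Log2 differences of such low genes may be understated. In D310N the 240 min changes were 3.57 ± 0.18 (F2r), 0.69 ± 0.11 (F9), 0.19 ± 0.20 (F8) and -0.70 ± 0.14 (Vwf). Of these, F8 was not called (adjusted p = 0.385). Between genotypes F2rl2 (PAR3) was higher in D310N by 0.59 ± 0.07 and F2r by 0.26 ± 0.07, and Vwf was lower by 0.51 ± 0.06 and the clot-stabilising F13a1 by 0.32 ± 0.05 (differences -0.51 and -0.32). The genes of prothrombin, factor XI and the 3 fibrinogen chains had no row among the genes used, and factors V and XII were below the filter.

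Of the anticoagulant list, 2 of 9 genes were tested. The list wrote protein Z with a symbol that matched no row, so the tested gene Proz is not in these counts and is given among the neighbours of F7. Thbd, thrombomodulin, which turns thrombin toward protein C, fell in WT by 2.00 on the log2 scale at 240 min (-2.00 ± 0.13), at the time when Procr, its partner in that pathway, was 2.09 ± 0.14 above 0 min. Thbd differed by -0.19 ± 0.05 between genotypes on average. Pros1, protein S, a cofactor of both protein C and Tfpi, was higher in D310N by 0.20 ± 0.02 and rose by 0.17 ± 0.06 with LPS. In the vitamin K cycle and secretion list all 6 genes were tested: 1 was higher in D310N and 1 lower, and 1 rose and 2 fell with LPS at 240 min in WT. The protease Furin rose by 1.00 ± 0.08, and the reductase Vkorc1l1 and the carboxylase Ggcx changed by -0.82 ± 0.05 and -0.41 ± 0.09. Between genotypes Vkorc1l1 differed by 0.18 ± 0.02 and Furin by -0.14 ± 0.03.

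In the plasminogen list 7 of 14 genes were tested, of which 3 were higher and 2 lower in D310N and 4 rose and 1 fell with LPS at 240 min in WT. Plat, the tissue-type activator and the other enzyme that releases plasmin, rose while Plau did not. Its WT mean was 5.4 at 0 min, 9.77 at 60 min and 8.56 at 240 min, gains of 4.37 ± 0.13 and 3.16 ± 0.13, and its average genotype difference did not pass the test (-0.07 ± 0.05, adjusted p = 0.282). Lrp1, the receptor that clears activator and inhibitor complexes, fell by 1.03 on the log2 scale (-1.03 ± 0.15) and S100a10, a plasminogen-binding partner of annexin A2, rose by 0.62 ± 0.03, as did annexin A2 itself (Anxa2) by 0.59 ± 0.04. Between genotypes Eno1 and Lrp1 were higher in D310N by 0.33 ± 0.03 and 0.23 ± 0.06, Anxa2 was higher by 0.17 ± 0.02, and the protease St14 differed by -0.41 ± 0.05. Plasminogen itself had no row.

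In the thrombospondin list 5 of 8 genes were tested, with 1 higher and 2 lower in D310N and 3 rising and 1 falling with LPS at 240 min in WT. Cd36, a scavenger receptor that binds thrombospondin 1, was higher in D310N by 0.78 ± 0.06 on average, with no call for LPS at 240 min. Sdc4, Itgav and Cd47 rose in WT by 2.68 ± 0.08, 1.67 ± 0.10 and 1.44 ± 0.05, and Itgb3, the beta chain of a thrombospondin-binding integrin, changed by -1.49 ± 0.12 with LPS and by -0.46 ± 0.05 between genotypes. Cd47 differed by -0.12 ± 0.02 between genotypes. Thbs2, Thbs3 and Thbs4 were below the filter.

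**Figure D4:**
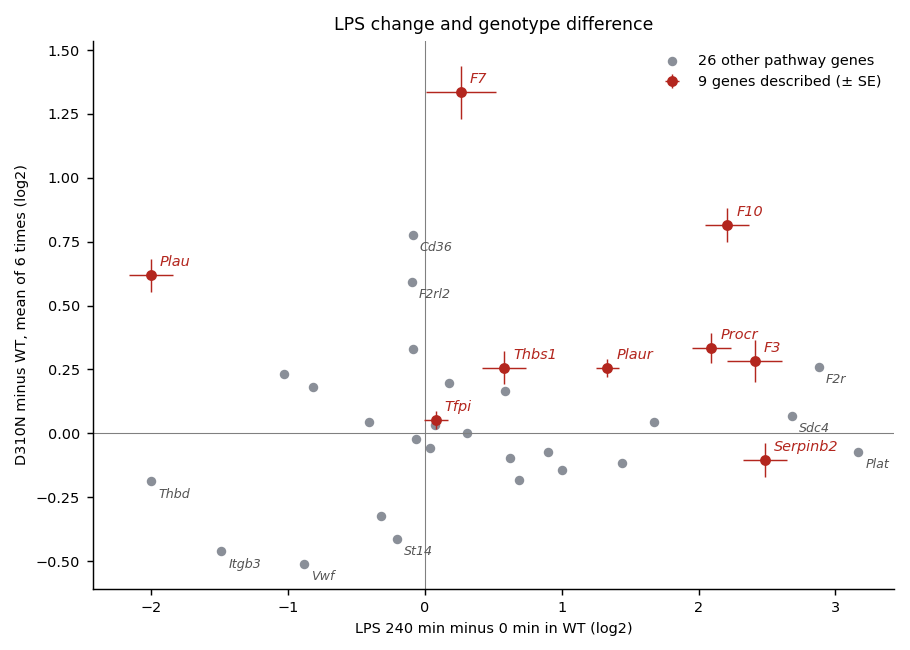
D310N minus WT averaged over 6 times (y axis, log2) against the change at 240 min of LPS in WT (x axis, log2) for the 9 genes (red, ± SE) and 26 other tested genes of the 2 systems (grey). F7 stands highest with little LPS change, F10 combines both, and Plau is high on the y axis with a fall under LPS.

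The chromosomal setting of the 9 genes was read from GENCODE M21 on the mm10 build. F7 (chr8:13026034-13035809) and F10 (chr8:13037308-13056676) lie side by side on the plus strand, with starts 11274 bases apart. Of 12 tested genes within 500 kb of F7, 11 were called between genotypes on average, 6 higher and 5 lower in D310N, where 48.1% of all tested genes were called. F10 itself was the one nearest in position and in size, at 0.82, followed by Mcf2l at 0.32 and Proz, the vitamin K-dependent protein Z, at 0.27. The others lay between -0.39 (Gas6) and 0.11 (Pcid2, with Dcun1d2 also at 0.11), with Cul4a at 0.03, Tmco3 at -0.05, Atp11a at -0.07, Tfdp1 at -0.09 and Lamp1 at -0.16. Around the rest of the members, 8 of 12 tested neighbours were called near Tfpi, 2 of 5 near Thbs1, 10 of 19 near Procr, 6 of 17 near Plau, 5 of 17 near Plaur, 1 of 4 near F3 and 0 of 1 near Serpinb2, to be read against the same 48.1%. Near Tfpi, itself not called, Slc43a3 was at -0.94, 2700094K13Rik at -0.47, Ube2l6 at -0.30, Serping1, the C1 inhibitor that also blocks contact-phase proteases, at -0.30, Gm13710 at -0.27, Clp1 at -0.18, Zdhhc5 at 0.04 and Timm10 at 0.18. Near Thbs1, Bub1b was at -0.47 and Eif2ak4 at 0.10, and near F3, Arhgap29 was at -0.34. Near Procr the called neighbours lay between -0.18 and 0.16 (Trp53inp2, Rbm12, Ergic3 and Map1lc3a lower, and Nfs1, Trpc4ap, Gss, Ncoa6, Cpne1 and Phf20 higher). Near Plau they lay between -0.25 and 0.06 (Dnajc9, Adk, Ndst2 and Sec24c lower, and Anxa7 and Ecd higher). Near Plaur they lay between -0.13 and 0.26 (Phldb3 and Xrcc1 lower, and Smg9, Zfp428 and Kcnn4 higher). Apart from F7 and F10 next to each other, the highest called neighbour of a member higher in D310N was Mcf2l, at 0.32.

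Among the 9 genes, the time courses fell into shapes. Over the 12 group means, Pearson r was 0.944 for F10 with Procr, 0.895 for F3 with Plaur and 0.873 for Plaur with Serpinb2; these points share libraries and normalisation, and r is given as a description. Of all tested genes outside the 9, those most like each member over the same 12 means included Sele, Zswim8 and Ddx5 for F3 (0.929 to 0.924) and Itgax, Ptprn and Mmp9 for F7 (0.988 to 0.981). They included Cct4 and Ubqln1 for F10 (0.989 and 0.986), Efr3b, Etv5 and Nt5dc3 for Plau (0.988 to 0.984), and Olr1, Trim13 and Ddx5 for Plaur (0.981 to 0.973). For Serpinb2 they included Stk40, Etf1 and Kcmf1 (0.985 to 0.982), for Thbs1 Nek7 and Tcf7l2 (0.953 and 0.952), and for Procr Unc93b1, Aven and Ube2v1 (0.994 to 0.992). For Tfpi, which hardly varied, they were Man2c1os, Abhd2 and Cdc5l (0.846 to 0.782).

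Markers of macrophages and of other cell types that make these proteins were read in the same libraries. All 8 macrophage markers were tested, and the lowest library value of Csf1r was 13.61, of Adgre1 14.52 and of Lyz2 16.81. On average 2 of the 8 were higher in D310N and 6 lower, by between -0.18 and 0.21. Of 5 hepatocyte markers 0 passed the filter, with a summed linear value of 0.378 to 0.518 in every library. Of 7 endothelial markers 4 were tested and all 4 were lower in D310N, among them Kdr (-0.67 ± 0.04) and Vwf, with a summed value at 0 min of 1913 to 1982 in WT and 1138 to 1608 in D310N, while Tek and Emcn stayed below 0 on the log2 scale. Procr and Thbs1, which endothelial cells also make, were higher in D310N on average. What endothelial cells contribute to these differences was not tested. Of 7 megakaryocyte and platelet markers only Pf4 was tested, at 0.21 ± 0.04 between genotypes with a summed value at 0 min of 911 to 971 in WT and 1013 to 1262 in D310N, and Gp9 and Gp6 stayed below 0.

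Of 7 fibroblast and stromal markers 2 were tested, of which Col1a2 was higher in D310N (0.55 ± 0.16), with a summed value at 0 min of 24.9 to 33.6 in WT and 27.9 to 35.7 in D310N. Of 7 neutrophil markers S100a8 and S100a9 were tested and higher by 0.33 ± 0.07 and 0.26 ± 0.08, with a summed value at 0 min of 18.2 to 20.1 in WT and 19.2 to 23.2 in D310N. Of 5 dendritic cell markers 3 were tested, with 1 higher and 1 lower in D310N, and of 4 mast cell and basophil markers Kit was tested, at -0.78 ± 0.08. Several of these sums also moved with LPS. From 0 to 240 min the endothelial sum in WT went to between 3304 and 3655, with Kdr higher by 3.42 ± 0.11, Pecam1 by 2.18 ± 0.20 and Cdh5 by 1.2 ± 0.16, and in D310N it went to between 2137 and 2607. Vwf, the other endothelial marker tested, went the other way, by -0.88 ± 0.14 in WT and -0.70 ± 0.14 in D310N. The stromal sum went to between 117.3 and 144.5 in WT and between 127.0 and 143.1 in D310N, with Pdgfrb higher in WT by 3.11 ± 0.16. Col1a2, the other stromal marker tested, was not called in WT (0.30 ± 0.39). The dendritic cell sum in WT went from between 26.3 and 29.6 to between 111.8 and 152.7, and in D310N from between 25.0 and 26.5 to between 107.4 and 110.5. The mast cell and basophil sum in WT went down, from between 39.9 and 49.1 to between 17.8 and 24.1. In D310N that sum went from between 17.6 and 27.2 to between 12.8 and 18.6. These moved at a time when Procr, Thbs1 and F3 were above 0 min. The part of other cell types in the LPS changes and genotype differences of the 9 genes was not tested.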

How the data were processed

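The deposited table holds log2 normalised expression per gene, and per the submitters' processing notes the authors used STAR 2.5.2a, RSEM 1.2.31 and DESeq2 1.10.1 on the mm10 build; which transformation gave the log2 values is not given in the sources used here, and it may compress differences of low genes. Reads were single-end, 75 bases. Of 16439 rows, 23 named as dates were dropped. Column headings write D309N where the sample titles write D310N, and the titles' spelling is used. The members and lists were chosen with earlier results of these data known.

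Genes at 10 or more on the linear scale (3.32 on log2) in at least 3 libraries were tested with limma 3.58.1 (R 4.3.3): 1 mean per group of genotype and time, intensity trend, 24 residual degrees of freedom, two-sided, Benjamini-Hochberg adjustment over the 11656 genes within each comparison. The code was tested on simulated data. All 9 members are named. From each pathway list, the text names up to 4 called genes with the largest average genotype difference and up to 4 with the largest WT change at 240 min; likeness names those among the 3 highest r, neighbours those called, and markers the defining ones. A few genes that these rules select are not reported here, and the list counts leave them out. Alternatives covered normalisation, filter, pseudocount, library weights, trend, block, groups fitted and libraries left out. Replicate numbers were checked for pairing: deviations of same-numbered libraries correlated over 0.1 in all 3 pairs only for D310N at 120 against 0 min (0.131 to 0.373), where the replicate block changed no member's call. Numbers 1 and 2 of D310N correlated over 0.1 with 0 min at every LPS time (0.166 to 0.419).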

Additional observations from a re-analysis of the deposited data

Results flagged for a closer look

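Thbs1 at 120 min of LPS was singled out because its 2 genotypes moved in opposite directions from 0 min without overlap: all 3 WT libraries were below all unstimulated WT libraries, and all 3 D310N libraries were above all unstimulated D310N libraries. The response in D310N minus that in WT was 0.67 ± 0.23, and limma's test of this difference did not pass (adjusted p = 0.232, Benjamini-Hochberg). Over the alternatives, the adjusted p passed with library weights (0.00166) and when the library labelled WT 360 min 1 was left out (0.0012).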

How the results depend on the processing

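The 7 average genotype calls held under all 47 alternatives for each gene. Of 162 genotype, LPS and joint-test results of single members, recomputed 3411 times, 112 kept their direction and side of the threshold throughout, 53 recomputations lost a call, 88 gained one and 1 reversed: Tfpi at 360 min in WT was 0.22 (adjusted p = 0.029) after quantile normalisation against -0.03. Library weights gave 7 members called between genotypes at 0 min, 6 at 240 min, 4 for LPS at 30 min in D310N and 4 in the joint test. A fit of only the 2 groups compared gave 6 at 240 min, 0 at 360 min and 4 for LPS at 30 min in WT. The cause was not tested. Leaving out 1 library gave between 2 and 6 members between genotypes at 0, 30, 60 and 240 min, and between 0 and 3 in the joint test. The low counts of 2 came without D310N replicate 1 of 0 min, D310N replicate 1 or 3 of 30 min, and WT replicate 1 or D310N replicate 1 or 3 of 60 min, and the 6 at 240 min without the library labelled WT 360 min 1. The joint test gave 3 without that library, 2 without WT replicate 2 of 360 min, and 1 without WT replicate 3 of 360 min or D310N replicate 2 of 0 min. Between genotypes same-numbered libraries share only a number (pair correlations from -0.25 to 0.26, and over 0.1 in all 3 pairs at no time). The replicate block gave 6 members at 240 min and 2 in the joint test (Thbs1 and Procr), called F7 under LPS at 240 and 360 min in both genotypes (adjusted p between 0.00128 and 0.0247), and called the response of Procr at 240 min, D310N minus WT (adjusted p = 0.0402). Quantile normalisation also called F7 at these LPS times, with differences from 0.57 to 0.74. Serpinb2 at 240 min was called lower in D310N by 5 alternatives, with differences from -0.44 to -0.37. The response at 120 min of Thbs1 and at 360 min of Serpinb2 was called with library weights (0.74 and 0.70) and without the library labelled WT 360 min 1 (0.67 and 0.78). Depth is unknown, and Serpinb2 at 0 min lies near the filter. The shares of all tested genes called under each alternative are not given here.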
